A study of Mus musculus with 6 samples.

Results

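The genes described here are 9 loci that mark the capillary subtypes of the lung or serve the uptake of lipids by the endothelium: *Cd36*, *Gpihbp1*, *Fabp4*, *Car4*, *Ednrb*, *Aplnr*, *Plvap*, *Kit* and *Ptprb*. They were picked by name, and a differentially methylated region (DMR) was given to a gene when its midpoint lay in the RefSeq gene body of GRCm38 (mm10) or at most 10 kb to either side. By this rule 37 of the 18333 listed DMRs belonged to 7 of the 9 genes, and *Gpihbp1* and *Fabp4* had none.

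The DMRs come from whole genome bisulfite sequencing by tagmentation, in which a transposase fragments the DNA and bisulfite leaves only methylated cytosines unconverted. Lung endothelial cells (EC) of C57BL/6N mice, described as female in the study's methods, were compared between 3 infant samples, from animals 8 to 10 days old, and 3 young adult samples, from animals 8 to 12 weeks old. The labels give no allele or treatment for either group and set the groups apart by age only. The cells were sorted as CD31+ CD34+ after exclusion of PTPRC+, LYVE1+, LY76+ and PDPN+ cells and of dead cells, a gate that does not separate capillary subtypes. Each DMR is listed with 1 mean methylation per age group, averaged by the authors over its CpGs and over the 3 samples, so that values per sample, their spread and the coverage of a single DMR were not analysed here and no test was run.

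Lung capillaries contain EC of 2 known kinds. Aerocytes, marked by *Car4* and *Ednrb*, are large, flat cells apposed to the alveolar epithelium and specialised for gas exchange, and general capillary cells, marked by *Aplnr*, *Plvap*, *Kit*, *Ptprb* and also *Gpihbp1*, serve as the progenitors that maintain the capillary bed. Capillary EC further pass fatty acids from the blood to the tissue, for which GPIHBP1 holds lipoprotein lipase at the vessel wall, CD36 takes up fatty acids at the cell surface and FABP4 binds them inside the cell.

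The direction of the change differed by gene. All 7 DMRs of *Cd36* and all 14 DMRs of the aerocyte genes *Car4* and *Ednrb* had a lower mean in young adult than in infant EC (a loss of methylation), whereas 14 of the 16 DMRs of the general capillary genes *Aplnr*, *Plvap*, *Kit* and *Ptprb* had a higher one (a gain). Together 23 of the 37 DMRs lost methylation, beside 45.9% of all listed DMRs. This majority of losses depended on the window: within 50 kb there were 23 losses and 24 gains, and by the nearest promoter in the deposited list 24 losses and 22 gains. Loss DMRs were present at 4 of the 9 genes, beside 12.7% of the 21774 protein-coding genes counted in the same way, and gain DMRs were also present at 4 of the 9, beside 19% of protein-coding genes. At least 1 DMR lay at 7 of the 9 genes, beside 27.4%. Of the 6 genes with at least 3 DMRs, 5 had DMRs of only 1 direction, beside 58.6% of the 1596 protein-coding genes with at least 3 DMRs. The windows of the 9 genes held 6.79 DMRs per 100 kb, against 1.07 for the pooled windows of all protein-coding genes. The 9 genes were chosen with earlier results of these data known, so these shares and this density are no independent support. Because DNA of all sorted cells was pooled in each sample, a methylation change within a cell type and a shift in the share of capillary subtypes cannot be told apart.

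**Figure D1:**
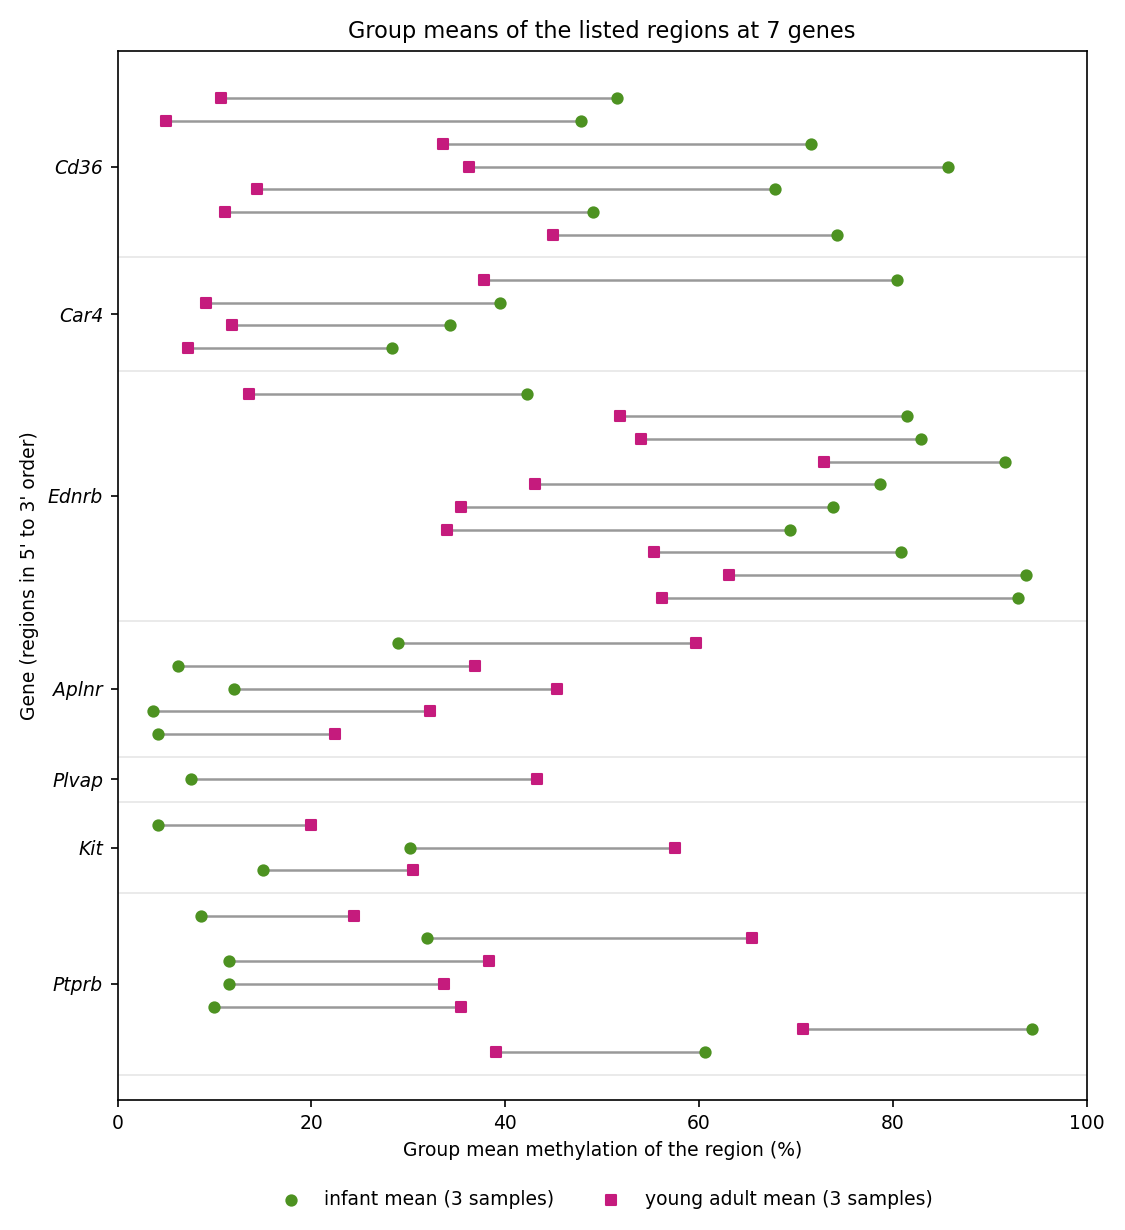
Mean methylation in percent (x axis) of the 37 DMRs at 7 genes (rows, in the 5′ to 3′ order of each gene) in infant EC (green circles) and young adult EC (magenta squares). Each symbol is the authors' mean over 3 samples, for which no error is available. The squares lie to the left of the circles in all 21 DMRs of *Cd36*, *Car4* and *Ednrb* and to the right in the 9 of *Aplnr*, *Plvap* and *Kit*, while *Ptprb* has 5 gains and 2 losses.

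The following stretches of reference sequence (GRCm38.p6, plus strand, 5′ to 3′) are the DMRs with the largest difference at each gene, shown so that the CpGs whose methylation was averaged can be seen. CpGs are in capitals. At *Ednrb* the DMR with the largest difference was wider than 300 bp, and the largest among the narrower ones is given instead, a choice made after the values were seen.
Cd36, chr5:17842255-17842345, intron 1, loss: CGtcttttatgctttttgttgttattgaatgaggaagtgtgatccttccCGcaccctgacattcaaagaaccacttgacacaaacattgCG
Car4, chr11:84959234-84959407, intron 1, loss: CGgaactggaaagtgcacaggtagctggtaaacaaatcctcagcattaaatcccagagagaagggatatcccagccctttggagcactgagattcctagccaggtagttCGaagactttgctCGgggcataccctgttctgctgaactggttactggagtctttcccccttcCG
Ednrb, chr14:103826629-103826732, intron 2, loss: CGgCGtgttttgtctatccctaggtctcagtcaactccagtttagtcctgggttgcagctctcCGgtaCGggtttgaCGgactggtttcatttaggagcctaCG
Aplnr, chr2:85137347-85137360, coding part of exon 1, gain: CGgaagaggCGcCG
Plvap, chr8:71503097-71503252, intron 5, gain: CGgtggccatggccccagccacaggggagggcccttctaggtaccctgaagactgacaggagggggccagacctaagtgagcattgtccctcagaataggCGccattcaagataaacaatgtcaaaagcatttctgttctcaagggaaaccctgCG
Kit, chr5:75594309-75594459, intron 1, gain: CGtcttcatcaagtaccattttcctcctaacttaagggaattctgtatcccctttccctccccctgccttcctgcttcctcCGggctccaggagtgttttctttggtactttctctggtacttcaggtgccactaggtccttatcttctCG
Ptprb, chr10:116287104-116287301, upstream of the curated start site, gain: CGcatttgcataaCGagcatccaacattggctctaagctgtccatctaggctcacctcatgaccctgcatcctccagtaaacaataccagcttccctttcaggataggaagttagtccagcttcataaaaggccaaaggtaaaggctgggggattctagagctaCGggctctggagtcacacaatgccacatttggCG
The DMRs begin and end with a CpG by construction. The one in the coding exon of *Aplnr* packs 3 CpGs into 14 bp, whereas the one in intron 1 of *Cd36* spreads 3 CpGs over 91 bp.

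Among the lipid-uptake genes, DMRs were found only at *Cd36*, which encodes the fatty acid translocase of the cell surface. The gene lies on the minus strand at chr5:17781690-17888959. Its 7 DMRs covered 20.8 kb in the middle of the gene, with midpoints 39.6 to 60.1 kb from the start of the longest curated transcript, and had a median of 67.9% in infant EC and 14.4% in young adult EC and a median difference of -40.8 percentage points. The largest loss of all 37 DMRs, from 67.9% to 14.4% (-53.5 points), fell in the stretch of intron 1 printed above. Its neighbour at chr5:17842419-17842584 fell from 85.7% to 36.3% (-49.5 points). A further 3 DMRs in the same intron went from 71.6% to 33.6% (chr5:17844691-17844827), from 47.8% to 5.04% (chr5:17846698-17847049) and from 51.5% to 10.7% (chr5:17848962-17849684). The last of these lies 470 bp past the start of the alternative curated transcript NM_001159556.1. Intron 1 here refers to the longest curated transcript, NM_001159558.1, whose start lies 39.6 kb upstream of the same DMR.

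The remaining 2 *Cd36* DMRs lie at and just before exon 4. One in intron 3 (chr5:17829232-17829452, 6 CpGs) went from 49.1% to 11.1% and lies 50 bp from the start of a predicted transcript, and one that falls in the 5′ untranslated part of exon 4 (chr5:17828881-17828937) went from 74.2% to 44.9%, the smallest loss at the gene with -29.3 points. *Cd36* was thus intermediate to highly methylated in infant EC at every listed DMR, and 4 of its 7 DMRs were below 20% in young adult EC. Of all protein-coding genes, 295 (1.35%) had at least as many loss DMRs.

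Neither of the other 2 lipid-uptake genes had a DMR. The window of *Gpihbp1*, a short gene at chr15:75596630-75598213, holds 200 CpGs, and the nearest listed DMR was 41.3 kb away. The window of *Fabp4* (chr3:10204342-10208616) holds 272 CpGs, with the nearest DMR 58.7 kb away. The absence of a DMR says that no run of 3 CpGs with enough coverage passed the authors' thresholds. The methylation of these windows in either group is not known from the list.

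Losses at the 2 aerocyte genes differed in where they ended. *Car4* (chr11:84957754-84966054, plus strand) encodes carbonic anhydrase 4, a membrane-bound enzyme that converts bicarbonate to carbon dioxide at the capillary surface. Its 4 DMRs lay in intron 1 and downstream of the gene. The intronic DMR, 1566 bp past the start site, went from 80.4% to 37.8% (-42.6 points). Downstream, methylation went from 39.4% to 9.10% (chr11:84966705-84966744), from 34.3% to 11.8% (chr11:84972157-84972471) and from 28.3% to 7.23% (chr11:84974247-84974659, 7 CpGs). All 3 downstream DMRs thus started below 40% and ended below 12%. The farthest had its midpoint 8.40 kb past the gene, and the next listed DMR outside the window was 246 kb away.

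*Ednrb*, on the minus strand at chr14:103814615-103844508, encodes the endothelin receptor type B, which binds endothelins and in EC clears them. With 10 DMRs, all losses, it had the most of the 9 genes, and 178 protein-coding genes (0.817%) had at least as many loss DMRs. All 10 midpoints lay in intron 2 of the longest curated transcript, over 16.2 kb, and the intron is also covered by the long non-coding RNA gene *Gm35197* on the opposite strand. DMRs held 7.98% of the 514 CpGs of the window. The median methylation was 81.1% in infant EC and 52.9% in young adult EC, with a median difference of -30.1 points.

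Within *Ednrb* the DMR nearest to a curated start site (chr14:103842549-103842826, 1014 bp past that of NM_001276296.1) stood apart in level: it went from 42.3% to 13.6%, while the other 9 were at 69.4% to 93.7% in infant EC and at 33.9% to 72.9% in young adult EC. The largest loss, from 73.9% to 35.4% (-38.5 points), lay at chr14:103837993-103838323. The stretch printed above, with 6 CpGs, went from 92.9% to 56.2% (-36.7 points). The smallest loss was from 91.6% to 72.9% (-18.6 points) at chr14:103839652-103839733. In young adult EC, 1 of the 10 *Ednrb* DMRs was thus below 20%, beside 3 of the 4 at *Car4* and 4 of the 7 at *Cd36*.

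**Figure D2:**
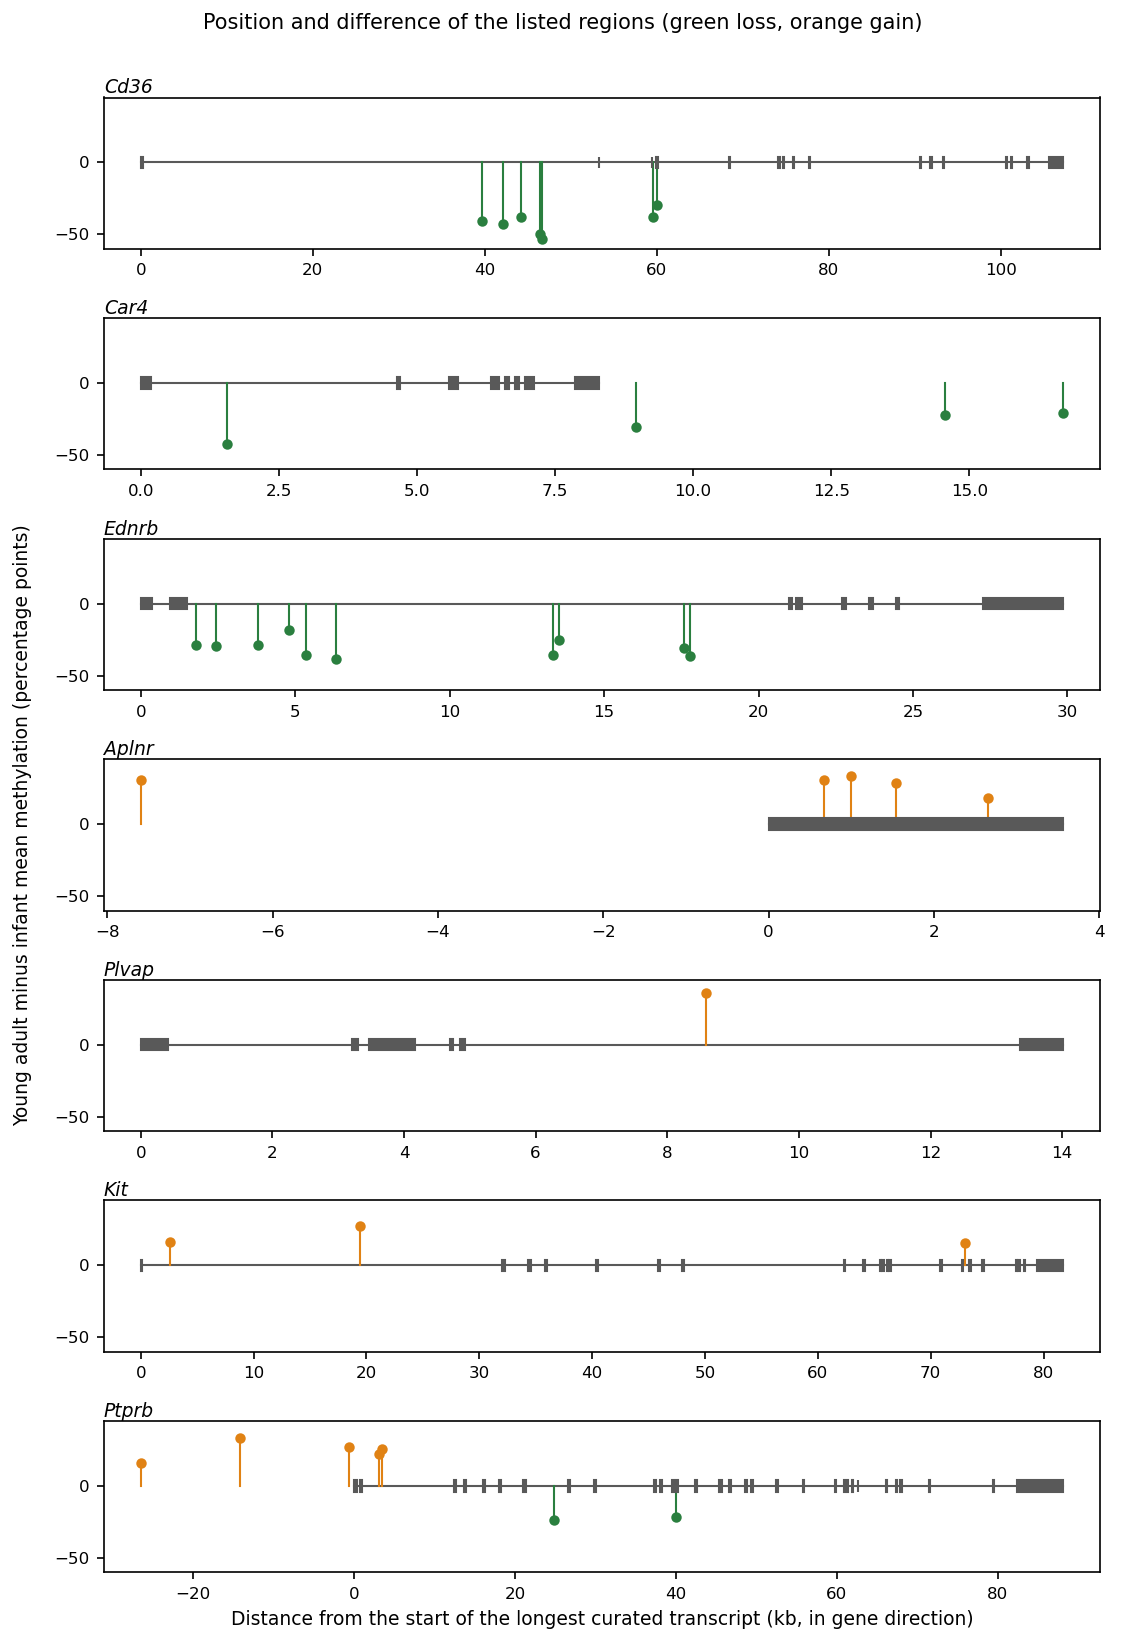
Young adult minus infant mean methylation in percentage points (y axis) of each DMR against its distance in kb from the start of the longest curated transcript (x axis, in the direction of the gene, with a scale of its own in each panel). Grey boxes are exons, green points are losses and orange points are gains. Losses lie in intron 1, intron 3 and exon 4 of *Cd36* and in intron 2 of *Ednrb*, 4 of the 5 gains at *Aplnr* lie in its single exon, and at *Ptprb* the 5 gains lie between -26.5 and 3.46 kb from the start and the 2 losses 24.8 and 39.99 kb inside the gene.

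At the general capillary genes, 11 of the 14 gain DMRs began below 20%. *Aplnr* (chr2:85136360-85139923, plus strand), the receptor for apelin and apela, consists of 1 exon, and 4 of its 5 gain DMRs lay inside it. The DMR closest to the start site, centred 668 bp past it in the coding sequence, spanned 439 bp with 14 CpGs (chr2:85136810-85137248). It overlapped a CpG island and went from 6.21% to 36.8% (30.6 points). The coding stretch printed above went from 12.05% to 45.3% (33.2 points), the largest gain at the gene. In the 3′ untranslated part, methylation went from 3.68% to 32.3% (chr2:85137859-85137931) and from 4.13% to 22.4% (chr2:85138937-85139088).

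The fifth *Aplnr* DMR lay 7.60 kb upstream (chr2:85128732-85128797) and went from 29.0% to 59.6%. It was the DMR just inside the limit of 10 kb, and the next listed DMR beyond the limit, 15.6 kb from the gene, had gained from 30.4% to 58.3%. DMRs held 14.7% of the 197 CpGs in the *Aplnr* window, the highest share among the 9 genes. At least 5 gain DMRs were found at 242 protein-coding genes (1.11%).

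*Plvap* (chr8:71497753-71511806, minus strand) encodes the protein of the diaphragms that span endothelial fenestrae and caveolae. Its single DMR, in intron 5, went from 7.59% to 43.2% (35.6 points), the largest gain among the 37. The midpoint also lies in the predicted gene *Gm46041*. Another gain, from 29.2% to 58.4%, lay 13.9 kb from *Plvap* and thus outside the limit.

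*Kit* (chr5:75574987-75656722, plus strand), the receptor tyrosine kinase for stem cell factor, had 3 gain DMRs spread over a long gene. In intron 1, methylation went from 4.13% to 20.005% at 2620 bp past the start site (chr5:75577472-75577744) and from 30.2% to 57.5% in the stretch printed above. The DMR in intron 15 (chr5:75648006-75648056) went from 15.0% to 30.5%. The gains were thus 15.9, 27.3 and 15.4 points, and the DMRs held 0.525% of the 1714 CpGs of the window.

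*Ptprb* encodes the vascular endothelial protein tyrosine phosphatase, which dephosphorylates the angiopoietin receptor TIE2 and VE-cadherin complexes. It was the only one of the 9 genes with DMRs of both directions, with the losses downstream of all gains. The curated transcript NM_029928.2 (plus strand, chromosome 10) starts at 116301374, while a predicted transcript extends the gene body upstream to 116275502. The gain DMR closest to the curated start (chr10:116300563-116300978, 7 CpGs, at -604 bp from it) went from 11.5% to 38.3%. In intron 2, methylation went from 11.5% to 33.6% (chr10:116304266-116304533) and from 9.92% to 35.4% (chr10:116304646-116305031).

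Further upstream of *Ptprb*, the stretch printed above went from 31.9% to 65.4% (33.5 points) and a DMR before the predicted start, inside the neighbouring phosphatase gene *Ptprr* (chr10:116274758-116274902), went from 8.57% to 24.4%. The 2 losses lay deep in the gene, from 94.3% to 70.7% in intron 7 (chr10:116326154-116326165) and from 60.7% to 39.0% in intron 12 (chr10:116341342-116341387). Both of these overlapped a 200 bp window that met the criteria of a CpG island. At *Ptprb* the 5 gains thus started between 8.57% and 31.9% in infant EC, and the 2 losses at 60.7% and 94.3%.

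Across the genes, most of the gain DMRs had a low starting level. The infant mean also set the direction of a DMR, and the genes were chosen with earlier results known. The low level is thus a description and no independent support. The median of these gain DMRs was 10.7% in infant EC and 36.1% in young adult EC, while all listed gain DMRs had medians of 54.8% and 78.1%. Infant methylation was below 20% in 11 of the 14 (78.6%), against 14.6% of all listed gain DMRs, a level chosen after the values were seen. None of the 14 exceeded 80% in young adult EC, against 46.3% of all gain DMRs. The median gain was 27.0 points at these genes and 20.4 points over the list, and 5 of the 14 (35.7%) gained at least 30 points, against 12.98%. *Aplnr* and *Ptprb* held 5 of the 14 each, some of them close neighbours, so the 14 are not independent. Of the 14, 8 lay within 5 kb of a curated start site of their gene, as did 8 of the 23 loss DMRs. The share over all listed DMRs is not given. The comparison with all listed gain DMRs was not matched for position.

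The loss DMRs were nearer to the rest of the list. Their median went from 73.9% to 36.3%, compared with 61.5% and 25.4% for all listed loss DMRs, and the median difference was -30.6 points beside -32.5 points. Young adult methylation was below 20% in 8 of the 23 (34.8%), beside 38.1% of all loss DMRs. By position, 19 of the 23 losses lay in introns, 1 in an exon and 3 downstream. Of the 14 gains, 6 lay in introns, 4 in exons and 4 upstream of the longest curated transcript. All exonic gains were in the single exon of *Aplnr*, and the upstream gains lay at *Ptprb* and *Aplnr* only. These positions are not set beside those of all listed DMRs. No DMR overlapped the 250 bp before to 50 bp after a curated start site of its gene, and 4 of the 37 were within 1 kb of one.

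**Figure D3:**
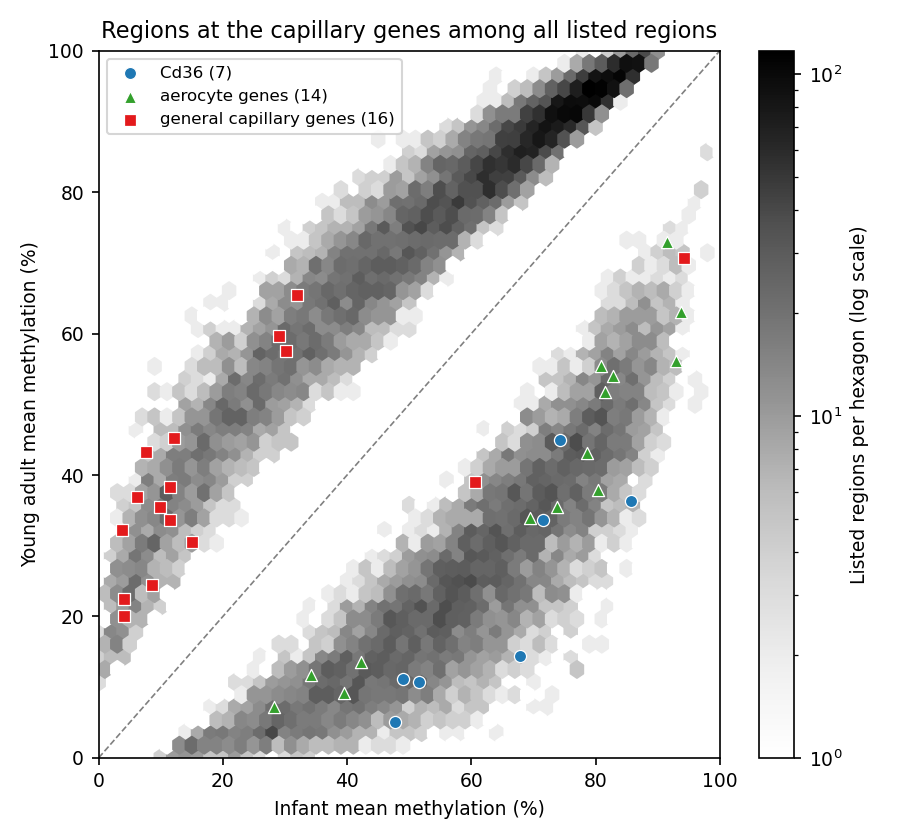
Infant (x axis) against young adult (y axis) mean methylation in percent of all 18333 listed DMRs, shaded by their number per hexagon on a log scale, with the DMRs of *Cd36* (blue circles), of the aerocyte genes (green triangles) and of the general capillary genes (red squares). The dashed line marks equal means, and the empty band along it results from the minimum difference of the list. Of the 14 red squares above the line 11 lie below 20% on the x axis, where 14.6% of all listed gain DMRs lie.

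The sequence of the 37 DMRs was set beside that of the whole list. Their median width was 156 bp (all DMRs 126 bp), their median GC content 49.7% (50%), and 20 of 37 (54.1%) held just 3 CpGs (66.5%). A CpG island was overlapped by 3 of 37 (8.11%), beside 13.8% of all DMRs. In the 200 bp centred on each DMR, read on both strands, the SOX motif ACAAT was present in 18 of 37 (48.6%) and in 27.2% of all DMRs. The ETS motifs CCGGAA or CAGGAA were present in 4 (10.8%, all DMRs 28.9%), the KLF motif CACCC in 10 (27.0%, 38.4%), the GATA motif AGATAA in 5 (13.5%, 11.7%) and the TEAD motif GGAATG in 2 (5.41%, 11.7%).

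The FOX motif TGTTTAC was present in 3 (8.11%, all DMRs 4.36%), the AP-1 motif TGANTCA in 3 (8.11%, 6.54%) and the direct repeat bound by PPAR factors, with at most 2 mismatches, in 2 (5.41%, 3.16%). The FOX and ETS composite GGATGTT was in none, beside 2.81%. A match of letters is a description of these windows and not a binding site. Windows of the closest neighbours within *Ednrb* overlap by a few bases, but no motif was present in both windows of such a pair.

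The direction seen at the 9 genes was set beside that of other genes of the same roles. Of 12 other aerocyte genes, 10 had loss DMRs, beside 12.7% of protein-coding genes, and *Apln* and *Fibin* had no DMR. Of the 130 DMRs at these 12 genes 127 were losses, beside 45.9% of all listed DMRs. *Kitl*, which encodes the ligand of KIT, had 44 losses (medians 76.9% and 41.0%), and *Emp2* and *Pmp22*, both tetraspan membrane proteins, had 20 and 16. Losses also prevailed at genes that are not markers of aerocytes. Among 8 pan-endothelial genes 49 of 50 DMRs were losses, with 17 at *Pecam1*, 15 at *Cdh5* and 15 beside 1 gain at *Erg*.

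The 7 other general capillary genes were divided. Gains from low methylation were present at *Cd93*, a C-type lectin-like membrane receptor, with 6 gains and medians of 5.90% and 38.0%, and at *Glp1r*, the receptor for glucagon-like peptide 1, with 2 gains and medians of 9.62% and 42.0%. In contrast, *Tmem100* had 8 losses, *Sema3c* 6 (medians 70.8% and 17.2%), *Hilpda* 3 and *Tek* 1, and *Cxcl12* had no DMR. In all, 18 of their 26 DMRs were losses, beside 45.9% of all listed DMRs. The gains at *Aplnr*, *Plvap*, *Kit* and *Ptprb* were not shared by every general capillary gene of the list. Genes beyond the 3 of each list with the most DMRs, here and in the other lists, were singled out once the values were known.

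**Figure D4:**
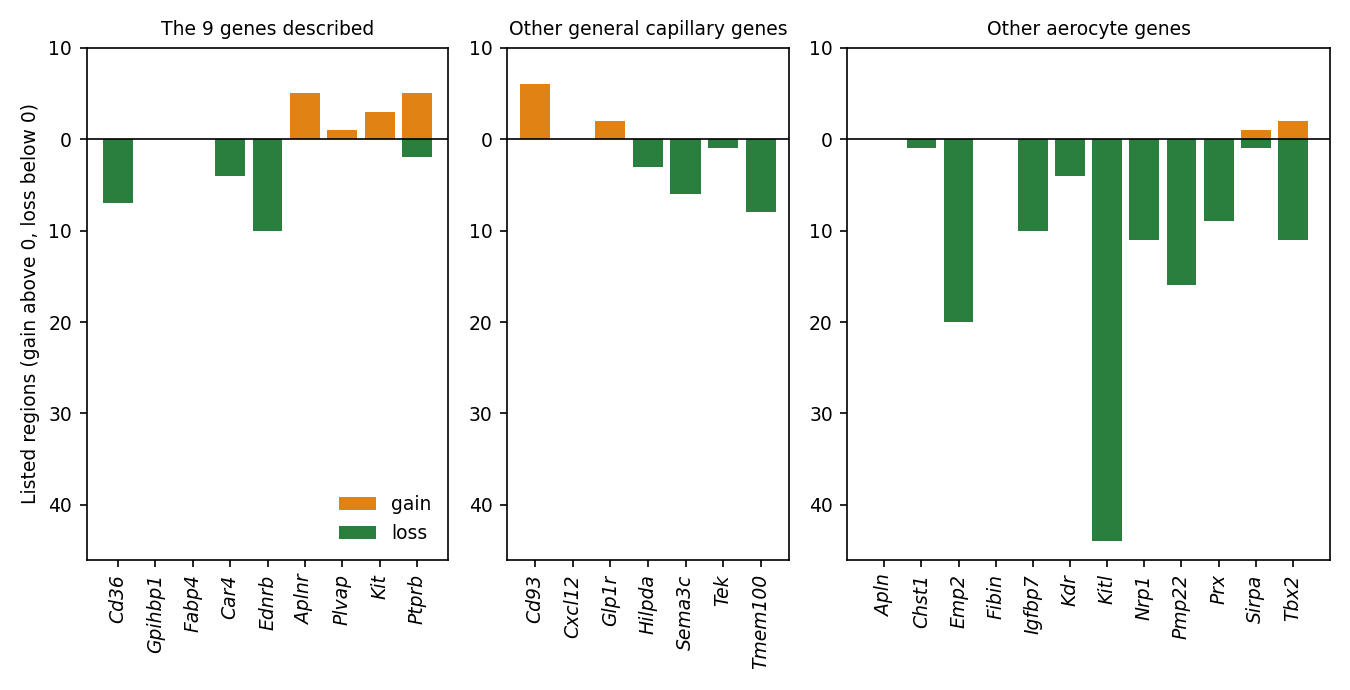
Number of listed DMRs per gene (y axis, gains in orange above 0 and losses in green below 0) for the 9 genes described, 7 other general capillary genes and 12 other aerocyte genes. Losses prevail at the other aerocyte genes, up to 44 at *Kitl*, while of the other general capillary genes 4 have losses, 2 have gains and 1 has no DMR.

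Among 9 ligands and partners of the encoded receptors and of GPIHBP1, DMRs were unevenly placed. *Kitl* held 44 of the 45 losses, the same DMRs as in the aerocyte list, and *Tek*, the receptor acted on by PTPRB, the remaining 1. Gains were found at *Angpt1*, the ligand of TIE2, with 2, at *Thbs1*, a ligand of CD36, with 1, and at *Lpl*, the lipase bound by GPIHBP1, with 1 from 85.1% to 97.6%. *Apln*, *Apela*, *Edn1* and *Edn3*, the ligands of APLNR and EDNRB, had none.

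Of 21 genes for endothelial lipid handling, 4 had loss DMRs and 8 had gain DMRs, beside 12.7% and 19% of protein-coding genes. The other 10 had none. The losses were concentrated at *Cav1*, the main structural protein of caveolae, with 9 (medians 55.7% and 15.0%), and at *Scarb1*, a receptor for high-density lipoprotein, with 7 beside 1 gain. *Acsl5* and *Cpt1a* had 2 losses each and *Tcf15* 2 gains. Of the 29 DMRs at these genes 20 were losses, beside 45.9% of all listed DMRs. The loss pattern of *Cd36* was thus found at a few of these genes, and *Fabp5*, *Pparg*, *Slc27a3* and *Slc27a4* had no DMR.

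Markers of cells outside the sort held at most 1 DMR each, where 27.4% of all protein-coding genes had at least 1. None of 4 leukocyte genes had one, 1 of 4 epithelial genes (*Cdh1*, 1 loss), 2 of 4 mesenchymal genes (*Pdgfra* and *Acta2*, 1 gain each) and 2 of 4 lymphatic genes (*Lyve1* and *Flt4*, 1 loss each). The list holds only regions that differed with age and no transcript levels, so the purity of the sorted cells could not be checked with it.

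Other genes with the pattern of *Cd36* were sought among the 30 protein-coding genes that also had 7 losses and no gain. The nearest in their median infant and young adult methylation were *Slc48a1*, *Hpgd* and *Fmo2*, at distances of 5.97, 6.45 and 8.03 points. Among the 19 genes with 10 losses and no gain, *Igfbp7* (5.16 points), itself in the list of aerocyte genes, and *Spred2* (5.57) were nearest to *Ednrb*, ahead of *Atp2b1* (19.7). *Ptprb* had as many DMRs as *Cd36*, and the 5 genes with its 2 losses and 5 gains were all far from it, the nearest being *Myo1d* at 32.1 points, *Nfatc1* at 32.8 and *Rapgef4* at 42.4.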

How the data were processed

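Tagmentation-based whole genome bisulfite sequencing was done on sorted lung EC of 3 infant and 3 young adult samples. Per the submitters' processing notes, bcl2fastq 1.8.4, BWA 0.6.1 and R 3.2.2 were used. Reads were aligned to mm10, and the authors called DMRs with bsseq on unsmoothed values: a CpG entered when 2 or more samples of a group covered it at least 8 times, and DMRs were runs of at least 3 CpGs, each with p under 0.05, whose group means lay at least 10% apart. In the deposited list, 1 methylation fraction per group, which the authors averaged over the samples, stands for each DMR, together with a direction and the nearest promoter. No values per sample were used, so no error, interval or test could be given. The depth behind each DMR is unknown, and because DMRs were selected on the same samples, their differences are those of selected regions.

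Here fractions were expressed as percent, and the difference was young adult minus infant. Deposited positions, counted from 0 at the C of the first and last CpG, were converted to positions counted from 1, and distances were taken from the midpoint of a DMR. The first and last CpG of 18333 of 18333 DMRs matched the reference, and all directions given in the list were those of the differences computed here. Gene bodies, exons and start sites came from RefSeq (GRCm38.p6), with introns and exons numbered in the longest curated transcript. A CpG island was a 200 bp window with at least 50% GC and an observed to expected CpG ratio of at least 0.6. The RefSeq promoter table held 4 of the 9 genes and was not printed from. Counting was tested on simulated data. Python 3.11.15, numpy 2.4.6, pandas 2.3.3 and matplotlib 3.10.9 were used.

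The 9 genes, the gene lists and motifs were chosen with earlier results of these data known, and count as no independent support. Within a gene, the DMRs named are the largest loss, the largest gain and the one nearest to a start site, and each DMR where there are at most 5. The other DMRs of *Cd36* and *Ptprb* and the smallest loss of *Ednrb* were named after their values were seen, as were the genes without a DMR. From each list the 3 genes with the most DMRs are named. Alternatives were other windows, placement by overlap, larger differences, more CpGs, joined DMRs, curated transcripts alone and the nearest promoter of the deposited list.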

Additional observations from a re-analysis of the deposited data

How the results depend on the processing

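The counts of 37 DMRs, 23 losses and 14 gains and the median differences were recomputed under 9 alternatives. A window of 50 kb gave 24 gains beside 23 losses, and assignment by the nearest promoter in the deposited list gave 22 beside 24. A difference of at least 30 points left 18 DMRs, 13 losses and 5 gains, and at least 5 CpGs left 9 DMRs, 6 losses and 3 gains. The gene body alone, overlap in place of midpoint, at least 20 points, joining DMRs at most 500 bp apart and curated transcripts alone each moved these counts by less than 1.5 times. Of 72 recomputed counts for single genes that were above 0 to begin with, 50 moved by less than 1.5 times and 22 by more, and 2 counts of 0 became larger. *Kit* acquired 1 loss by nearest promoter, *Gpihbp1* 1 gain within 50 kb, and *Car4* was left with 1 loss in the gene body alone. With at least 5 CpGs, *Kit* and *Plvap* had no DMR left, and *Ptprb* kept 1 gain and no loss. With a difference of at least 30 points, *Kit* had no DMR left, and *Ptprb* again kept 1 gain and no loss. No replicate could be left out, since the list holds group means. No pairing of infant with young adult samples is stated, so no paired analysis was made. With no spread between samples, a small difference between DMRs cannot be told from sampling error.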
